A study of Mus musculus with 18 samples.

Results

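Olr1 and Ctsw were the subject of the analysis. They are 2 of the 55450 genes in the table, and both were among the 21161 genes that passed the filter on low counts. The genes were selected by name, and the names were chosen by their rise of about 30-fold with TGF-β. The rule gives no vector. The rises ranked 3 and 4 in empty vector cells and were close to 30-fold in CMV-miR-29b cells as well, so the response to TGF-β of both genes is given below as a description without a test, whatever the vector.

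The libraries came from mouse embryonic fibroblasts (MEF), bought as a line from ATCC, that were transiently transfected with lipid reagent. Each of 6 groups held 3 libraries. Control cells received the empty pcDNA3 vector. Col1a1-miR-29b cells received a plasmid in which a rat Col1a1 promoter drives EGFP and human miR-29b-1, and which also carries a red fluorescent protein gene under the SV40 promoter. CMV-miR-29b cells received the same design with the constitutive CMV promoter in place of the Col1a1 promoter. Plasmids were dosed by moles, so cells of the Col1a1 vector received more DNA by mass than those of the CMV vector. Effects of miR-29b cannot be told apart from those of DNA mass or, against the empty vector, of the fluorescent protein genes. From 6 h after transfection, cells of each vector were left untreated or were given TGF-β at 20 ng/ml for 24 h. Poly(A) RNA of whole cultures was sequenced, so fewer cells of a type and less RNA per cell cannot be told apart. The methods speak of repeated experiments for each group, but the labels do not tie libraries to separate cultures, and p-values measure the spread between these libraries, which may be technical in part.

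Olr1 encodes LOX-1, a C-type lectin-like scavenger receptor that binds and takes up oxidized low density lipoprotein. It is best known from endothelial cells, macrophages and smooth muscle cells, where it is low at rest and induced by inflammatory and oxidative stimuli. Ctsw encodes cathepsin W, a papain-like cysteine protease best known from natural killer cells and cytotoxic T lymphocytes. TGF-β signals through receptor kinases to SMAD proteins and turns fibroblasts toward a contractile, matrix-producing state. miR-29b is a microRNA that lowers collagen and other matrix mRNAs by pairing with their 3′ untranslated regions through its seed.

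Olr1 (ENSMUSG00000030162) lies on the minus strand of chromosome 6, from 129485244 to 129507165 in GRCm38 coordinates, with 5 annotated transcripts. Ctsw (ENSMUSG00000024910) lies on the minus strand of chromosome 19, from 5465043 to 5468501, with 6 annotated transcripts. The mature sequence of the transfected microRNA is shown because its seed, bases 2 to 8, in capitals, is what a direct target would have to match. It was taken from RefSeq with GRCm38.p6.

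miR-29b-3p: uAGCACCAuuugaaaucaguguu

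The 7 bases complementary to this seed, TGGTGCT, were absent from the longest annotated 3′ UTR of Olr1, which is 2422 bases long. Of 4039 3′ UTRs at least that long, 22.6% held the match within the same length. They were absent as well from the 101 base 3′ UTR of Ctsw, where 1.09% of 19772 3′ UTRs held the match within that length. No match says only that these letters are not in these windows.

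The 250 bases upstream of the RefSeq start of Olr1 are shown because Olr1 moved with TGF-β in every vector group. They lie at chr6:129507166-129507415 on the minus strand of GRCm38.p6. Ctsw moved with TGF-β as well, but the promoter sequences used here held no entry for it, so its promoter was not examined. The capitals mark an AP-1 motif (TGANTCA, both strands) and the 5 base SMAD motif CAGAC, which reads GTCTG on the other strand.

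Olr1 promoter: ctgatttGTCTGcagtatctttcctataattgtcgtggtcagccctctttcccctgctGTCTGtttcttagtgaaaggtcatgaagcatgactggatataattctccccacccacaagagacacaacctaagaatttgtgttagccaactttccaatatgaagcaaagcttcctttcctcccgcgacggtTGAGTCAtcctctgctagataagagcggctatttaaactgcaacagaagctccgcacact

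The AP-1 motif occurred once, at positions −60 to −54 from the start, and 6.75% of 32851 promoters of this length held it. CAGAC occurred 2 times, at −243 to −239 and at −192 to −188, and 42.2% of promoters held it. AGGTCA, the unit of nuclear receptor sites, occurred 1 time at −175 to −170, as in 14.02% of promoters. GGAATG, the TEAD motif, and GGGNNNTCC, the NF-kB motif, had no match in this window. They were found in 12.6% and 15.2% of promoters. None of the 4 matches overlapped another, and a match is a description of letters and not of binding.

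Counts were deposited per gene as whole numbers. Library totals ran from 65898017 to 80332633. Values are given below as normalized counts, which are counts scaled by the library total and the TMM factor to the depth of a mean library.

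In empty vector cells without TGF-β, Olr1 had raw counts of 18, 8 and 12 in the 3 libraries. With TGF-β the counts were 296, 529 and 439. Normalized counts averaged 11.9 ± 4.68 (SD, n = 3) in untreated and 421.6 ± 101.4 (SD, n = 3) in treated cells. Every treated library was above every untreated library, and the lowest treated value was 18.5 times the highest untreated value. The fitted log2 fold change was 5.14 with a standard error (SE) of 0.36.

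Ctsw in the same libraries had raw counts of 89, 59 and 43 without TGF-β. Its counts with TGF-β were 1943, 2038 and 2002. Normalized counts averaged 59.6 ± 21.3 (SD, n = 3) in untreated and 2010 ± 50.2 (SD, n = 3) in treated cells. The treated libraries lay within a narrow range and the groups did not overlap, with the lowest treated value 23.6 times the highest untreated value. The fitted log2 fold change was 5.07 (SE 0.35). Of all tested genes, 3.88% were called higher in this comparison (edgeR quasi-likelihood test, Benjamini-Hochberg adjusted p under 0.05), which is background to the choice of the genes.

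Of the genes called higher, 766 reached a mean of 1 CPM (count scaled to a common library size) over the 18 libraries. Olr1 did so only through its treated libraries, with group means of 0.159 to 0.464 CPM untreated and 5.66 to 6.57 treated. Those of Ctsw were 0.800 to 1.12 and 25.7 to 29.0 CPM. Among the 766 genes, AC157931 and Pcdhga8 ranked above Olr1 and Ctsw. AC157931 had a log2 fold change of 11.79 (SE 2.78) and a count of 0 in every untreated empty vector library, so its fitted value is no measure of size. Pcdhga8, a protocadherin, had 7.69 (SE 1.99). Both standard errors were several times those of Olr1 and Ctsw. Just below them came Lce1f, a cornified envelope gene, with 4.79 (SE 0.55), and Megf10, an engulfment receptor, with 4.51 (SE 0.17). Postn, which encodes the matrix protein periostin, followed with 3.59 (SE 0.71).

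The same values were read in the 12 libraries of the miR-29b vectors. Untreated Col1a1-miR-29b cells had Olr1 raw counts of 44, 42 and 17. With TGF-β the counts were 411, 419 and 464. The normalized count went from 34.6 ± 14.8 (SD, n = 3) to 443.2 ± 41.6 (SD, n = 3), and the groups did not overlap. The log2 fold change was 3.67 (SE 0.33), or 12.8-fold.

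In CMV-miR-29b cells Olr1 had raw counts of 12, 23 and 16 without TGF-β. Its counts with TGF-β were 519, 433 and 437. The normalized count went from 16.4 ± 5.53 (SD, n = 3) to 489.2 ± 39.8 (SD, n = 3), again without overlap. The log2 fold change was 4.89 (SE 0.35), or 29.6-fold.

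The raw counts of Ctsw were 54, 77 and 116 in untreated Col1a1-miR-29b cells. They were 1764, 2403 and 2134 with it. The normalized count went from 83.5 ± 33.1 (SD, n = 3) to 2157 ± 340 (SD, n = 3). The log2 fold change was 4.69 (SE 0.34), or 25.8-fold, and the groups did not overlap. In CMV-miR-29b cells its raw counts were 35, 96 and 72 without TGF-β. They were 2026, 1730 and 1668 with it. The normalized count went from 65.5 ± 30.3 (SD, n = 3) to 1912 ± 182 (SD, n = 3), a log2 fold change of 4.87 (SE 0.35), or 29.2-fold, again without overlap.

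As background, the share of tested genes called higher was 3% with the Col1a1-miR-29b and 3.08% with the CMV-miR-29b vector. Ranked by size among called genes of that same minimum level, Olr1 and Ctsw were 1 and 2 of 597 in CMV-miR-29b cells. With the Col1a1-miR-29b vector Ctsw was 4 and Olr1 6 of 585. These ranks may restate the choice of the genes, and Olr1 reached the minimum level only through its treated libraries.

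**Figure D1:**
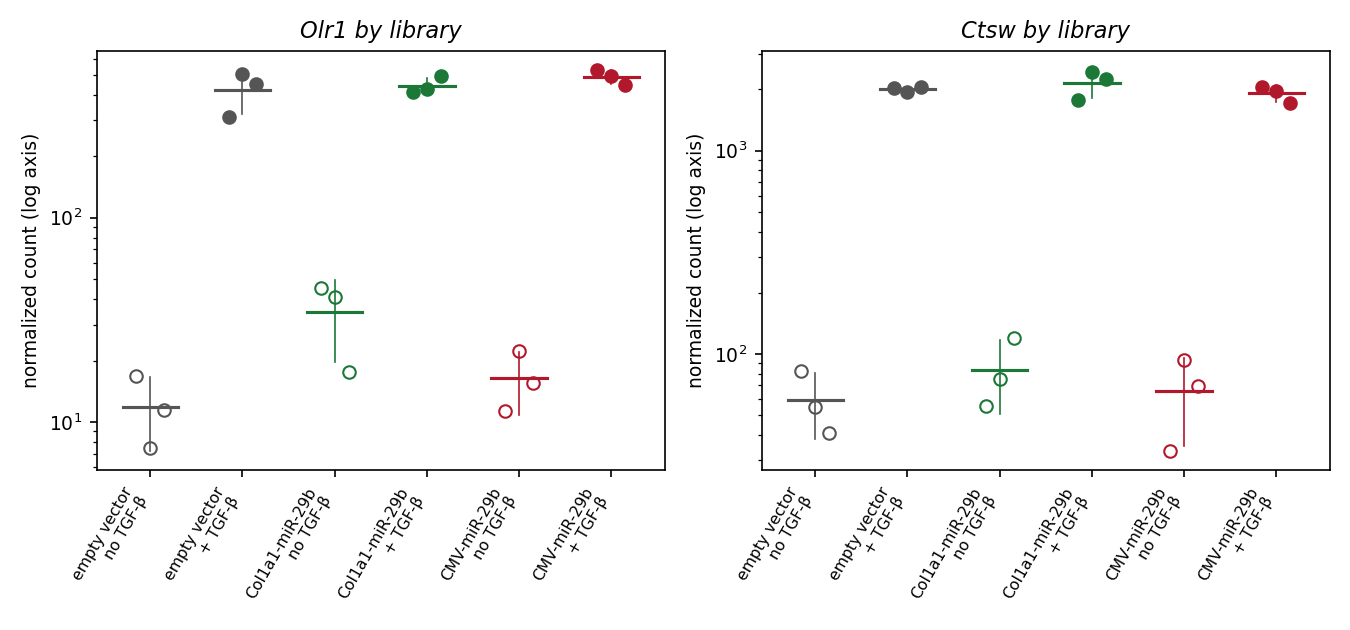
Normalized counts of Olr1 (left) and Ctsw (right) in each of the 18 libraries, on log axes that differ between the panels. Open points are libraries without TGF-β and filled points libraries with it, horizontal bars are group means and vertical lines ± 1 SD over 3 libraries. The treated libraries of Olr1 lie between 309.5 and 526.8 and the untreated ones between 7.44 and 45.1, and for Ctsw the ranges are 1708 to 2435 and 33.2 to 120.

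Ordered by mean, the Olr1 level ran from untreated empty vector cells over CMV-miR-29b to Col1a1-miR-29b cells, and then to the treated empty vector, Col1a1-miR-29b and CMV-miR-29b cells. Neighbours in that order overlapped in their libraries except at the step from untreated to treated groups. For Ctsw the untreated groups had the same order, and the treated groups ran from CMV-miR-29b over empty vector to Col1a1-miR-29b cells. Here too only the step from untreated to treated had no overlap. The coefficient of variation of Ctsw was 35.8% to 46.3% in the untreated groups and 2.50% to 15.8% in the treated groups. For Olr1 it was 33.7% to 42.9% in untreated and 8.14% to 24.0% in treated groups.

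Per length, Ctsw was the more abundant gene. Its mean FPKM (fragments per kilobase of transcript and mapped read number) was 0.371 to 0.411 in the untreated groups and 12.1 to 13.4 in the treated groups. Olr1 had a mean FPKM of 0.0380 to 0.146 untreated and 1.39 to 1.64 treated. In each Col1a1-miR-29b group the mean holds 2 libraries and leaves out 1 whose column letter no sample title carries. The 0.146 is such a mean, and the untreated library left out had the lowest Olr1 count of its group, 17 against 44 and 42. Among all tested genes, the mean FPKM of Ctsw lay at percentiles 29.8 to 31.1 in untreated groups and 78.3 to 79.9 in treated groups. That of Olr1 lay at percentiles 7.48 to 18.6 and 43.9 to 45.7. The FPKM of Ctsw over that of Olr1 had a median of 7.57 in 8 untreated libraries, with a range of 2.21 to 14.7. The untreated Col1a1-miR-29b libraries had 2.21 and 3.42. Their ratios of raw counts were 1.23 and 1.83, against 6.82 in the untreated library left out. In 8 treated libraries the median was 7.84, with a range of 7.23 to 12.4, so the treated libraries lay within the untreated range.

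The next question was whether the miR-29b vectors changed either gene. The comparison of CMV-miR-29b with Col1a1-miR-29b cells uses none of the empty vector libraries. The rises in CMV-miR-29b cells were also close to 30-fold, however. A choice by them would favour a high treated and a low untreated CMV-miR-29b level. With TGF-β, where 1.93% of all genes were called, the log2 difference was 0.14 for Olr1, with a 95% interval of −0.47 to 0.75 and an adjusted p of 0.888 in edgeR's quasi-likelihood test. For Ctsw it was −0.17 (95% interval −0.78 to 0.43). Neither gene differed beyond the spread between libraries.

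Without TGF-β, where 1.81% of genes were called, Olr1 was at 16.4 ± 5.53 in CMV-miR-29b and 34.6 ± 14.8 in Col1a1-miR-29b cells (normalized count, SD, n = 3). The log2 difference of −1.07 (SE 0.35, 95% interval −1.81 to −0.33) had an adjusted p of 0.124 in edgeR's quasi-likelihood test and of 0.0369 in DESeq2, so the call depended on the tool. The libraries overlapped, with the highest CMV-miR-29b count at 23 and the lowest Col1a1-miR-29b count at 17. The latter is the library whose column letter no sample title carries, and the other Col1a1-miR-29b libraries had 44 and 42. For Ctsw the difference was −0.35 (95% interval −1.05 to 0.35).

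The comparisons with empty vector cells share those control libraries with each other and with the rise by which the genes may have been named, and that choice favours a high treated and a low untreated empty vector level. With TGF-β, Olr1 in Col1a1-miR-29b cells differed from empty vector cells by 0.07 on the log2 scale (95% interval −0.54 to 0.68) and Ctsw by 0.10 (95% interval −0.50 to 0.71). Neither was called, while 12.9% of all genes were. CMV-miR-29b cells with TGF-β differed from empty vector cells by 0.21 (95% interval −0.40 to 0.82) for Olr1 and −0.07 (95% interval −0.68 to 0.53) for Ctsw, in a comparison in which 0.00945% of genes were called.

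Without TGF-β, Olr1 was higher in Col1a1-miR-29b than in empty vector cells. The raw counts of 44, 42 and 17 stood against 18, 8 and 12 and overlapped at 17 and 18. After normalization the groups did not overlap, but the lowest Col1a1-miR-29b value of 17.6 lay close to the highest empty vector value of 16.8. The log2 difference was 1.53 (SE 0.36, 95% interval 0.77 to 2.30), or 2.89-fold. Its adjusted p was 0.0218 in edgeR's quasi-likelihood test, and 6.27% of all genes were called in this comparison. A choice by the rise in empty vector cells would favour this direction, so the p-values here are not free of that choice. The call was lost when the library with 44 counts (1.29, adjusted p = 0.0771), that with 42 (1.37, adjusted p = 0.0882), the empty vector library with 8 (1.28, adjusted p = 0.0933) or that with 12 (1.5, adjusted p = 0.0582) was left out of the edgeR fit. It was also lost when only the 6 libraries compared were fitted (adjusted p = 0.147). Of 16 alternatives, 9 kept the call and 7 lost it. DESeq2 kept it (1.53, adjusted p = 0.00111). So did edgeR without the library with 17 counts (1.84, adjusted p = 0.0119) or that with 18 (1.85, adjusted p = 0.0338). The library with 17 counts is the one whose column letter no sample title carries. Ctsw differed by 0.48 (95% interval −0.22 to 1.19) and was not called. Between untreated CMV-miR-29b and empty vector cells, where 0.00473% of genes were called, Olr1 differed by 0.46 (95% interval −0.34 to 1.27) and Ctsw by 0.13 (95% interval −0.58 to 0.84).

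The response to TGF-β itself was compared between vectors as a difference of log2 fold changes. These differences subtract the rises by which the genes were chosen, so they are a description without a test, and a choice for a large rise in a vector pushes its differences from the other vectors one way. For Olr1 the response in Col1a1-miR-29b minus empty vector cells was −1.46 (SE 0.46), and that in CMV-miR-29b minus Col1a1-miR-29b cells was 1.21 (SE 0.45). The treated Olr1 levels of the 3 vectors overlapped, and the means of the untreated levels ran from 11.9 to 34.6. The response in CMV-miR-29b minus empty vector cells was −0.25 (SE 0.47).

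For Ctsw the difference in response was −0.38 (SE 0.43) for Col1a1-miR-29b minus empty vector. It was 0.18 (SE 0.43) for CMV-miR-29b minus Col1a1-miR-29b and −0.21 (SE 0.44) for CMV-miR-29b minus empty vector. In each of the 3 comparisons of responses edgeR called 0% of all genes. At an unadjusted p under 0.05 it listed 961 genes for Col1a1-miR-29b minus empty vector, 1083 for CMV-miR-29b minus Col1a1-miR-29b and 1129 for CMV-miR-29b minus empty vector. DESeq2 called 27, 34 and 19 genes in that order. Limma on log2(FPKM + 1) called 3, 3 and 0.

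**Figure D2:**
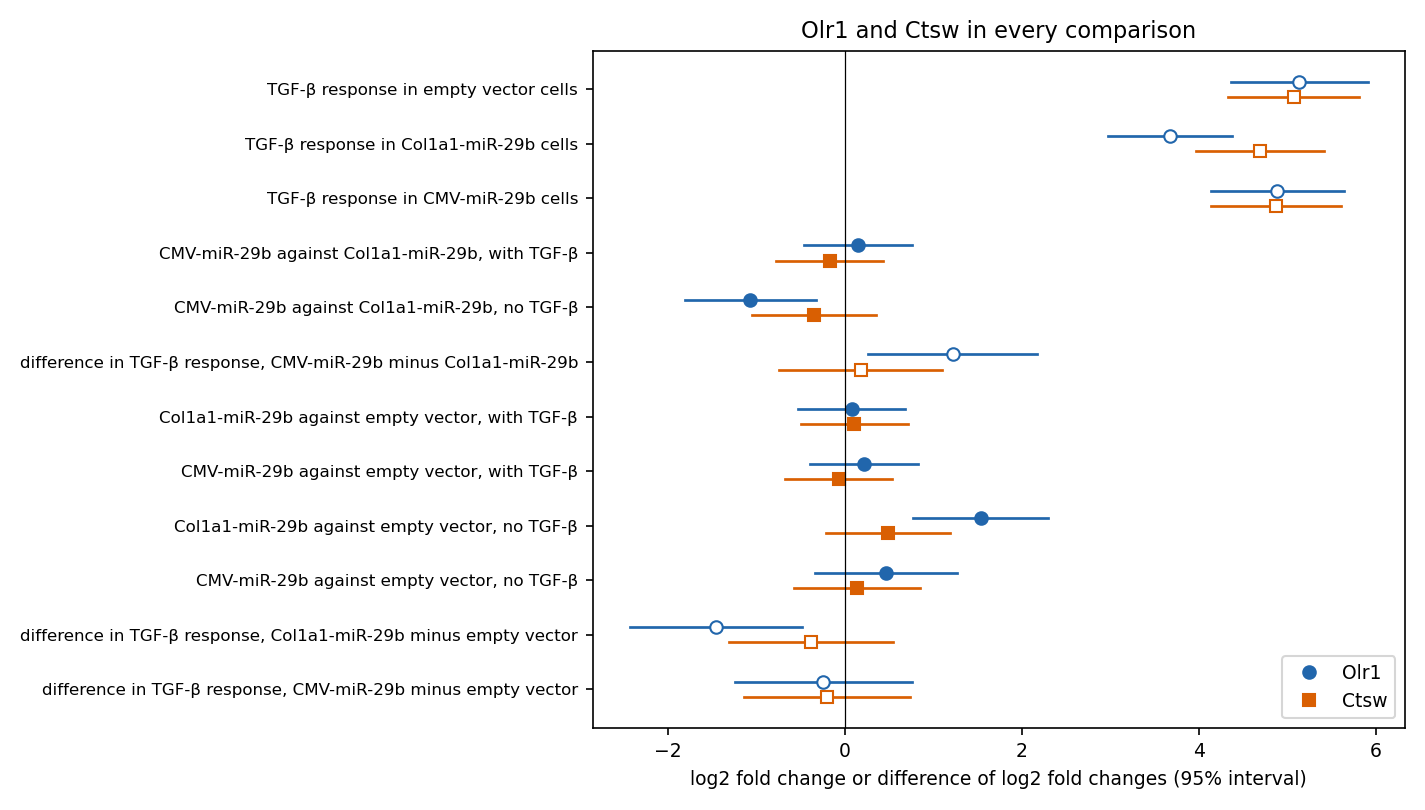
Log2 fold changes, or differences of log2 fold changes, of Olr1 (circles) and Ctsw (squares) in the 12 comparisons, with 95% intervals from the edgeR fit. Open symbols mark the responses to TGF-β and their differences, which are descriptions because the genes were chosen by such a rise. The 3 responses to TGF-β lie between 3.67 and 5.14, and the largest difference between vectors is the 1.53 of Olr1 in untreated Col1a1-miR-29b cells.

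Genes with a profile like that of each gene were named by Pearson's r of log2 CPM over the 18 libraries, with 13911 genes at a mean CPM of 1 or more. This likeness is a description, since the libraries fall into treated and untreated sets and both genes had been chosen by the difference between them. Olr1 and Ctsw had an r of 0.972 with each other. After the group means were subtracted, their r was 0.09. The high r over all libraries thus came from differences between groups. Untreated Olr1 had 8 to 44 counts per library, so the r of 0.09 cannot tell whether the genes also moved together within groups. Olr1 was most like Gadd45g, a stress-induced growth regulator (r = 0.989). Also close were Fgd3 (0.981), an exchange factor for the GTPase Cdc42, Thbs1 (0.981), which encodes thrombospondin 1, and Igfbp7 (0.980), which encodes a secreted growth factor-binding protein. Ctsw was most like Ccn2 (r = 0.986), the matricellular connective tissue growth factor. Also among the closest were B4galt1 (0.984), a galactosyltransferase, Pdgfb (0.984), a growth factor subunit, and Pmepa1 (0.984), a feedback inhibitor of TGF-β signaling.

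That their changes were smaller follows from the choice of Olr1 and Ctsw. Their log2 fold changes with the CMV-miR-29b vector included 0.88 for Gadd45g and 0.51 for B4galt1. Pmepa1 had the highest value of these 8 genes, 2.72, and Pdgfb and Ccn2 had 2.07 and 1.92.

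**Figure D3:**
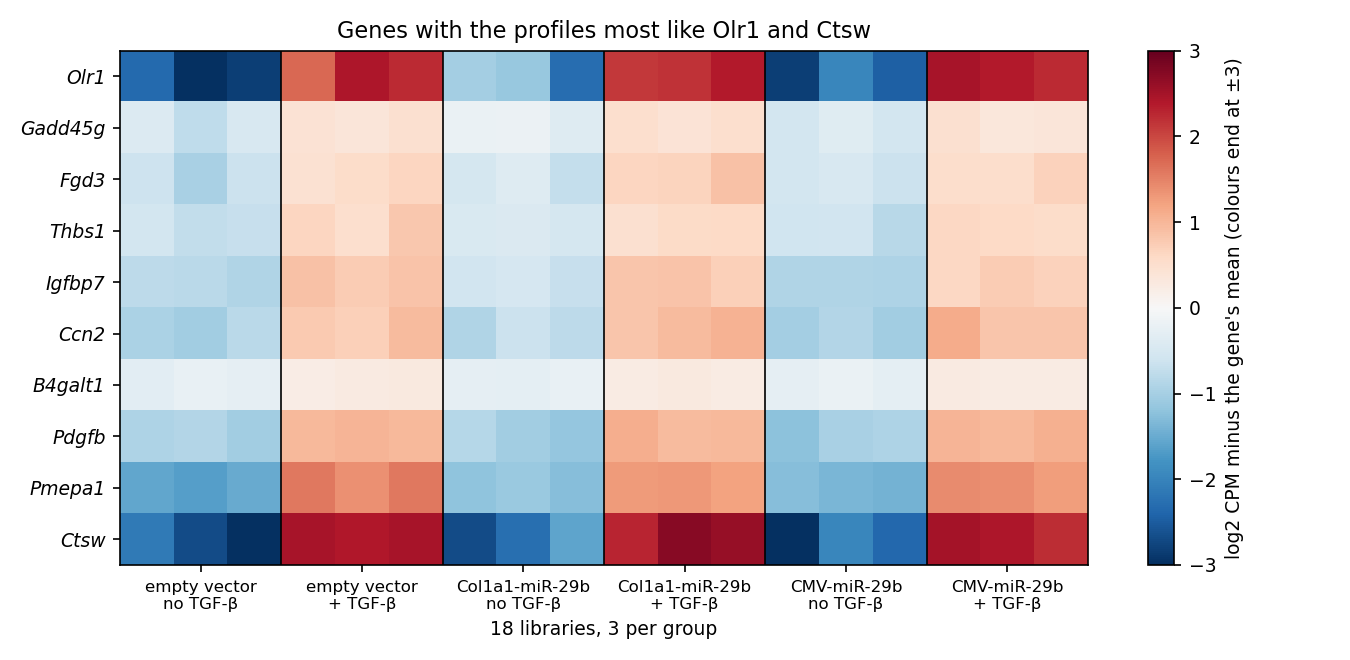
Log2 CPM of Olr1, Ctsw and the 8 genes named as like them in 18 libraries, with each gene's mean subtracted. Rows are genes and columns libraries, 3 per group, and colours end at ± 3. Every row is low in the untreated and high in the treated groups, and the contrast is strongest for Olr1 and Ctsw.

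Of 12 known TGF-β target genes, 11 were tested. In Col1a1-miR-29b cells 7 of them rose and none fell, where 3% of all genes rose and 1.32% fell. With the CMV-miR-29b vector 8 rose and none fell, where 3.08% of all genes rose and 1.87% fell. The median log2 fold change was 1.04 and 1.32, against a median over all genes tested of −0.0056 and −0.0025. Postn rose by 3.44 (SE 0.73) and 4.29 (SE 0.74) with the Col1a1 and CMV promoter vectors. Ltbp2, which encodes a latent TGF-β-binding protein, rose by 2.28 (SE 0.11) and 2.37 (SE 0.11). Ccn2 rose by 1.71 (SE 0.10) and 1.92 (SE 0.10), and Acta2, the smooth muscle actin of myofibroblasts, by 1.52 (SE 0.14) and 2.09 (SE 0.15).

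Scavenger receptors other than Olr1 were called in both directions. Of 23 listed, 18 were tested. In Col1a1-miR-29b cells 4 rose and 2 fell, where 3% of all genes rose and 1.32% fell. In CMV-miR-29b cells 5 rose and 3 fell, where 3.08% of all genes rose and 1.87% fell. The median log2 fold change was 0.01 and −0.22. Megf10 rose by 3.61 (SE 0.17) in Col1a1-miR-29b cells and by 4.02 (SE 0.17) in CMV-miR-29b cells. Stab1, a hyaluronan and modified lipoprotein receptor, rose by 1.07 (SE 0.11) and 1.10 (SE 0.11). Cxcl16, a membrane chemokine that also binds oxidized lipoprotein, rose by 0.76 (SE 0.17) and 0.87 (SE 0.17). Scara5, a ferritin receptor, had −1.15 (SE 0.24) and −1.37 (SE 0.24) and was called lower in both.

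Lrp1, the large endocytic lipoprotein receptor, which was named after its values were seen, had log2 fold changes of 0.65 (SE 0.09) in both vectors and was called higher in both. Cd36, another receptor for oxidized lipoprotein, had 0.10 (SE 0.49) and −1.16 (SE 0.49) and was called in neither. Msr1 and Marco, scavenger receptors of macrophages, had a count of 0 in all 18 libraries.

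Genes that LOX-1 signaling is known to act through or induce were looked at beside Olr1. Of 14 listed, 13 were tested. In Col1a1-miR-29b cells 1 rose and 2 fell, where 3% of all genes rose and 1.32% fell. In CMV-miR-29b cells none rose and 3 fell, where 3.08% rose and 1.87% fell. The median log2 fold change was −0.01 and −0.08. The neutrophil chemokine Cxcl1 had −0.46 (SE 0.11) and −0.50 (SE 0.11), and the adhesion molecule Vcam1 had −0.41 (SE 0.09) and −0.37 (SE 0.09). Both were called lower in both vectors. The rise in Col1a1-miR-29b cells was of Nox4, an NADPH oxidase, with 1.12 (SE 0.23). In CMV-miR-29b cells Nox4 had 0.80 (SE 0.23, adjusted p = 0.0626 with edgeR). The third fall in CMV-miR-29b cells was of the chemokine Ccl2, with −0.25 (SE 0.07).

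Of 16 other cathepsins and related proteases, 13 were tested. In Col1a1-miR-29b cells 1 rose and none fell, and in CMV-miR-29b cells none rose and 2 fell. The shares of all genes called were 3% higher and 1.32% lower in the former and 3.08% higher and 1.87% lower in the latter. Whether these counts of 13 set the list apart was not tested. Ctsl, a lysosomal cysteine protease, rose by 0.22 (SE 0.06) in Col1a1-miR-29b cells and had 0.20 (SE 0.06) in CMV-miR-29b cells, where it was not called. The carboxypeptidase Ctsa and the asparaginyl endopeptidase Lgmn had −0.21 (SE 0.06) and −0.22 (SE 0.06) with the CMV-miR-29b vector. The median log2 fold change was −0.01 and −0.08.

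In level, Ctsw moved within its family. In CMV-miR-29b cells its mean FPKM was 0.411 without and 12.1 with TGF-β, beside 1.03 and 0.967 for Ctso, 12.6 and 13.8 for Ctsc, and 186 and 171 for Ctsd, the aspartic protease of lysosomes. Treated, Ctsw stood next to Ctsc, the protease that activates granzymes. Of 11 cystatins, the inhibitors of cysteine proteases, 4 were tested and none was called in either vector. Over all genes, 3% and 3.08% were called higher and 1.32% and 1.87% lower in these vectors. Cst3 had log2 fold changes of −0.13 (SE 0.07) and −0.17 (SE 0.07), and Cstb had 0.00 (SE 0.05) and −0.04 (SE 0.05).

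**Figure D4:**
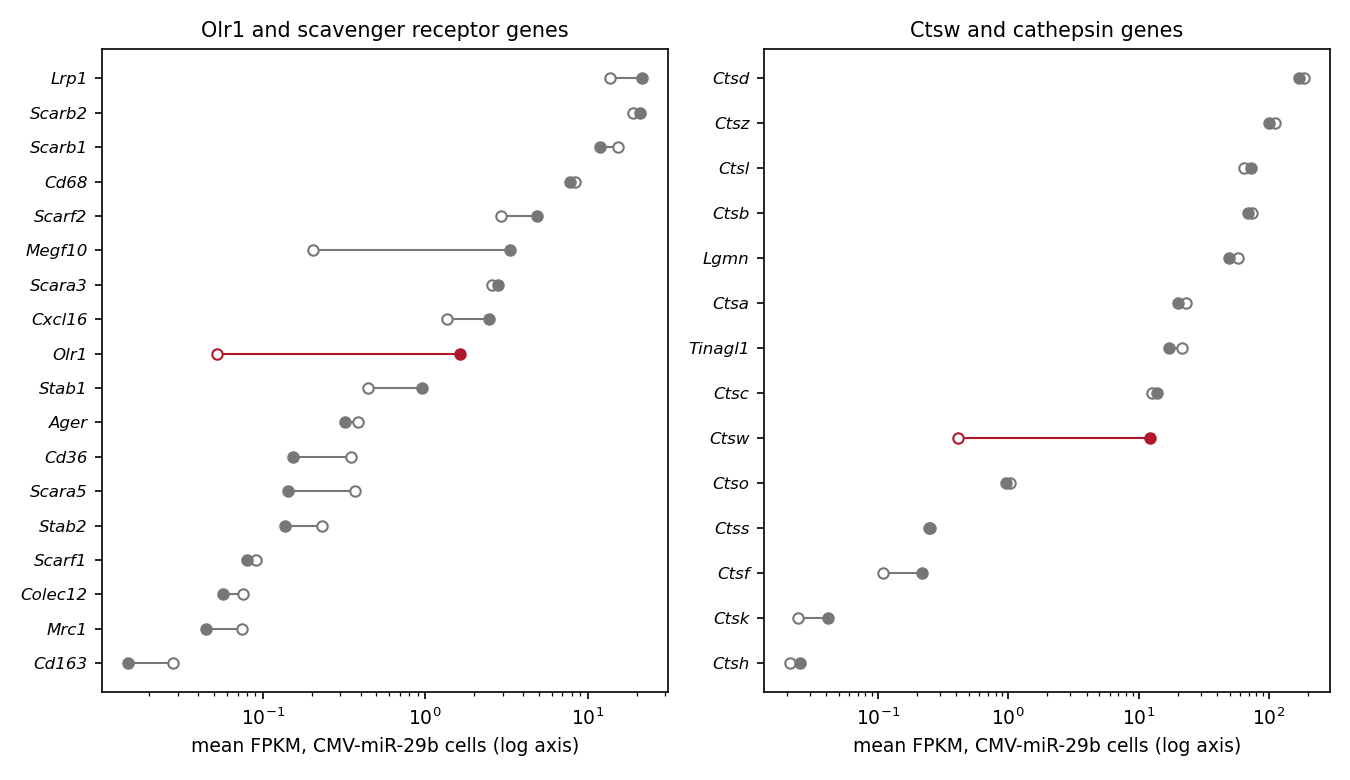
Mean FPKM of tested scavenger receptor genes, 1 left out, (left) and cathepsin genes (right) in CMV-miR-29b cells, on log axes, with open points for 3 libraries without TGF-β and filled points for 3 with it. The red lines are Olr1, from 0.0526 to 1.64, and Ctsw, from 0.411 to 12.1. Megf10 has the next longest line among the receptors, and the lines of the other cathepsins are short.

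The 3 nearest tested genes on each side of the 2 loci gave 12 in all, and none passed the threshold in either miR-29b vector. With 3% of all genes higher and 1.32% lower in Col1a1-miR-29b cells, and 3.08% and 1.87% in CMV-miR-29b cells, no call among 12 genes is near the background. Beside Ctsw, the AP-1 subunit gene Fosl1 had log2 fold changes of 0.29 (SE 0.08, adjusted p = 0.0653 with edgeR) and 0.19 (SE 0.08). Efemp2, which lies 5452 bases from Ctsw and encodes the matrix protein fibulin 4, had 0.11 (SE 0.06) and 0.07 (SE 0.06). Fibp overlaps the end of Ctsw by 9 bases on the opposite strand, through a Ctsw transcript annotated as a retained intron. It had 1061 to 1489 counts per library and log2 fold changes of 0.23 (SE 0.10) and 0.04 (SE 0.10). Beside Olr1, the autophagy gene Gabarapl1 had −0.03 (SE 0.08) and −0.17 (SE 0.08), and the lectin gene Clec2d had 0.34 (SE 0.38) and 0.15 (SE 0.38).

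Olr1 belongs to a cluster of C-type lectin genes of natural killer and myeloid cells. Of 17 other genes of this cluster, 9 had a count of 0 in all 18 libraries and 2, Clec2d and Cd69, were tested. Neither was called in either vector, where 3% and 3.08% of all genes rose and 1.32% and 1.87% fell. Clec7a, the beta-glucan receptor of myeloid cells, reached at most 16 counts.

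Markers of the cells in which both genes are best known were checked for the whole lists. Of 12 markers of cytotoxic lymphocytes, 6 had a count of 0 in all 18 libraries, and these include the granzyme genes Gzma and Gzmb, Cd8a and the natural killer receptor gene Ncr1. Ptprc, the pan-leukocyte gene, reached at most 25 counts, and it was the only marker of the list tested. The summed FPKM of the list was 0 to 0.0761 in 8 untreated and 0 to 0.0580 in 8 treated libraries, while the FPKM of Ctsw reached 10.8 to 15.4 in those treated libraries. The defining markers of these cells were thus at or near 0 with and without TGF-β.

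Of 12 macrophage markers, 7 were tested and none was called in either vector. Over all genes, 3% and 3.08% were called higher and 1.32% and 1.87% lower in these vectors. The summed FPKM of the macrophage markers was 10.6 to 13.6 in untreated and 9.05 to 11.3 in treated libraries, most of it from Cd68 and Lyz2. Tyrobp, C1qa and Msr1 had a count of 0 throughout. Of 8 endothelial markers, 5 were tested. None was called in either miR-29b vector, but Cdh5, the gene of VE-cadherin, rose in empty vector cells by 1.74 on the log2 scale (SE 0.32, adjusted p = 0.00277 with edgeR), from a mean FPKM of 0.111 to 0.365. In the miR-29b vectors Cdh5 had 0.67 (SE 0.31) and 0.93 (SE 0.31). The endothelial markers' summed FPKM moved with the rise of Olr1 and Ctsw, from 0.205 to 0.364 in untreated to 0.447 to 0.593 in treated libraries, without overlap. Erg and Emcn were at 0, and most of the sum came from Cdh5 and Pecam1. The part of such cells in the rise of either gene was not tested.

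Of 9 fibroblast markers, 7 were tested. Lum had a count of 0 in all 18 libraries, and Thy1 reached at most 8 counts. Pdgfra and Dcn had mean FPKM values of 0.888 and 0.569 over 16 libraries, and most of the sum came from Col1a1, Vim and Col1a2. In Col1a1-miR-29b cells 5 rose and 1 fell, where 3% of all genes rose and 1.32% fell. In CMV-miR-29b cells 4 rose and none fell, where 3.08% of all genes rose and 1.87% fell. Their summed FPKM was 263 to 337 in untreated and 431 to 642 in treated libraries.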

How the data were processed

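RNA of MEF cells was measured in 18 libraries by paired-end sequencing of poly(A) RNA. The deposited counts are whole numbers per gene without normalization, and the authors mapped reads with HISAT2 and assembled them with StringTie. The deposited FPKM values were made by the authors, hold 0.0001 where nothing was seen (read here as 0), and were used for levels between genes. How counts were taken and whether strand was used are not given in the sources used here. Among counts of 1 to 40, 33.8% to 36.7% per library were multiples of 4. The labels name mm9, but gene coordinates were identical to GENCODE for GRCm38 for 52506 of 55450 genes.

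Libraries were grouped by the labels. Each Col1a1-miR-29b group has 1 column whose letter no title carries. It entered as a library of its group by its counts, and 2 such FPKM columns were left out. No replicate pair was identical. Total counts had a median of 74155860.

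Counts were tested with edgeR 4.0.16 in R 4.3.3 (filterByExpr, TMM, 1 mean per group, quasi-likelihood F test, Benjamini-Hochberg adjustment over 21161 genes, threshold 0.05), and the scripts were tested on simulated data. Alternatives were DESeq2 1.42.0, its size factors, total count scaling, filters of 1 count in any or 10 in every library, the compared groups alone, a replicate block, each library left out, limma 3.58.1 on log2(FPKM + 1) and log2(FPKM + 0.1), and counts divided by 4. Folds on the limma scales are smaller for low genes. Genes and lists were chosen with earlier results of these data known. Named genes were Olr1, Ctsw, their 5 most correlated genes and 3 nearest tested genes on each side, their neighbours among the rises, the 4 most changed genes of each list called in both miR-29b vectors, and the highest and absent markers. Other family members named for their level or call were chosen after their values were seen. Promoter and microRNA sequences are from RefSeq, which matched Olr1 and miR-29b-3p. Values of 2 genes that these rules name or count are not reported here.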

Additional observations from a re-analysis of the deposited data

How the results depend on the processing

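The rise of Olr1 and Ctsw with TGF-β in both miR-29b vectors kept its direction in every alternative that gave a value, with log2 fold changes of 1.07 to 5.17 for Olr1 and 3.22 to 5.21 for Ctsw, the lowest on log2(FPKM + 1). Olr1 has no value under the filter of 10 counts in every library, because its lowest count was 8. In empty vector cells limma on log2(FPKM + 1) gave 3.30 for Ctsw and 1.19 for Olr1, and on log2(FPKM + 0.1) 3.41 for Olr1. The higher Olr1 of untreated Col1a1-miR-29b than empty vector cells was called with DESeq2 (1.53) and with the replicate block (1.82). It was 1.53 but not called with only the groups compared, and 0.143 and 0.839 on the 2 FPKM scales without a call. With each library left out it was 1.28 to 1.85. A choice by the rise in empty vector cells would favour this direction in every setting, so a call kept in other settings does not remove that choice. CMV-miR-29b against Col1a1-miR-29b without TGF-β was called for Olr1 by DESeq2 (−1.07). The causes of these changes were not tested, and the 8 to 44 counts of untreated Olr1 limit its precision.

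Genes called between untreated Col1a1-miR-29b and empty vector cells numbered 1327, against 2321 with DESeq2, 782 with the groups compared alone, 481 and 390 with limma on the 2 FPKM scales, and 468 to 1043 with each library left out (the lowest without empty vector replicate c). TGF-β called 914 genes in Col1a1-miR-29b cells, against 499 and 465 with limma, and 1047 in CMV-miR-29b cells, against 527 with the groups compared alone.

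Same-lettered libraries did not deviate together (mean r 0.0054 over 36 pairs, −0.0027 over 70 pairs of other letters), so the letters were not taken to pair samples. The replicate block left out the 2 unlettered libraries. It called 394 genes for TGF-β in Col1a1-miR-29b cells and 161 between untreated Col1a1-miR-29b and empty vector cells. The same libraries without the block, an alternative chosen after seeing the data, called 453 and 397. Under the block the Olr1 response was 3.27 with the Col1a1 and 4.89 with the CMV promoter vector.

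Differences between vectors that were near 0 and not called changed sign. For Ctsw, CMV-miR-29b against Col1a1-miR-29b without TGF-β was 0.0508 with the replicate block, 0.00386 with lettered libraries alone and −0.690 to 0.00373 with each library left out. The Ctsw difference in response between these vectors was −0.118 with the block and also on log2(FPKM + 1), −0.139 with lettered libraries alone, −0.0762 on log2(FPKM + 0.1) and −0.171 to 0.514 with each library left out. Treated Col1a1-miR-29b against empty vector cells gave −0.0126 for Ctsw and −0.0235 for Olr1 with the block, −0.0142 for Olr1 with lettered libraries alone, and −0.000163 to 0.223 for Ctsw and −0.118 to 0.220 for Olr1 with each library left out. With each left out, CMV-miR-29b against empty vector cells gave −0.216 to 0.442 untreated and −0.119 to 0.000533 treated for Ctsw, and differences in response of −0.516 to 0.146 for Ctsw and −0.565 to 0.0436 for Olr1. On the FPKM scales the last was 0.137 and 0.111 for Olr1, and that of Col1a1-miR-29b minus empty vector was 0.0412 for Ctsw on log2(FPKM + 1) but −0.0411 on log2(FPKM + 0.1).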
